A study of Mus musculus with 19 samples.

Results

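The epithelium of the urogenital sinus (UGE), the endodermal rudiment from which the prostate buds, was compared with the epidermis, an ectodermal epithelium, in tissue of mouse embryos of embryonic day 16. The samples were taken by their titles: 6 UGE samples and 4 epidermis samples, 10 of the 19 arrays of the series. The other 9 arrays held the mesenchyme that lies under each epithelium, 5 of urogenital sinus mesenchyme (UGM) and 4 of dermis. They shared the fit, and so the estimate of the spread, with the epithelia, and are described below only to show whether a difference between the sites was also seen outside the epithelium. All embryos were C57BL/6, and the labels name no mutation, treatment or sex. Each sample was RNA pooled from many embryos, and skin and urogenital sinus came from the same embryos, so samples of both sites can share animals. The sinus was split into its layers with trypsin and the back skin with Dispase overnight at 4°C, so that site and separation method cannot be told apart in any difference described here.

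Both tissues line a surface, but they are built for different tasks. The urogenital sinus is covered by a layered epithelium in which basal cells that carry p63 lie under cells with keratins of simple epithelia; it secretes, transports ions and water, and in the bladder makes the plaques of uroplakin proteins. The epidermis stratifies from basal cells that also carry p63 into spinous, granular and cornified layers, and its outer cells cross-link proteins into a cornified envelope and fill the space between them with ceramide-rich lipids, which seal the skin shortly before birth. Position along the body is written in the nested expression of Hox genes, with the groups of the highest numbers at the tail end where the sinus lies.

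The values are the intensities deposited for each probe set, the group of short DNA probes that reads 1 transcript on an Affymetrix array. A difference is given on the log2 scale as UGE minus epidermis ± its standard error, so that a positive value means higher in UGE, and adjusted p-values come from limma with Benjamini-Hochberg adjustment over all 41549 probe sets tested. The standard error, and so the p-value, of every gene pools the spread within all 4 groups, UGM and dermis included. A probe set was called when its adjusted p was under 0.01 and its change over 2-fold. Where 3 intensities are given for UGE they are the lowest, the median and the highest of the 6 samples, and the 4 intensities of epidermis are those of its replicates in order of their numbers. A gene is described by its brightest probe set. Intensities of different genes are not set against each other, since probe sets differ in how strongly they bind.

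The labels were set beside markers of each tissue. These markers were chosen with earlier results of these data known, so they are no independent check. All 8 sinus markers were higher in UGE (median difference 5.34), with a median log2 intensity over the list between 12.94 and 13.10 in the UGE samples and between 6.79 and 7.21 in the epidermis samples. Of 10 epidermal markers 9 were lower in UGE (median difference -4.35), the remaining one being Krt5, and their median log2 intensity was 7.98 to 8.92 in UGE and 13.58 to 13.97 in epidermis. Arrays of 1 group correlated at 0.954 to 0.994 in UGE and at 0.971 to 0.995 in epidermis over all tested probe sets, against 0.899 to 0.930 between the groups. Array medians were alike (78.0 to 80.1 in UGE, 76.9 to 79.3 in epidermis). UGE replicates 2 and 3 stood apart from the other UGE samples in markers of mesenchyme and of the genital ducts, whose values are given near the end. UGE replicate 1 lay between these and replicates 4 to 6 in the mesenchymal markers. The bacterial BioB control had log2 intensities of 8.21 to 8.27 for UGE replicates 5 and 6. It read 9.02 to 9.29 for UGE replicates 1 to 4 and 8.88 to 9.30 for epidermis.

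Of the probe sets tested, 4984 (12%) were called between UGE and epidermis, 2902 (6.98%) higher and 2082 (5.01%) lower in UGE. The median difference over all tested probe sets was -0.05. In 2751 of the higher and 1840 of the lower ones, the 6 UGE and 4 epidermis samples did not overlap at all, a separation seen upwards in 13.3% and downwards in 11% of all probe sets tested. Read once per gene, 1438 of 17360 genes were higher (8.28%) and 1063 lower (6.12%), and these shares are the background for the counts in each gene list below. Changes over 16-fold were found in 80 probe sets higher and 145 lower in UGE. In some calls the low group sat on the floor of the array: for 309 of the 2902 higher and 260 of the 2082 lower probe sets, the mean of the low group was under the lower quartile of the arrays (26.0 to 30.2), where the intensity no longer follows the amount of RNA closely.

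Genes were ranked by size of change among called ones whose UGE and epidermis samples did not overlap. The largest differences were those of Foxa1, Clca1 and Tspan8 among genes higher in UGE, and of Hrnr and Dsc1 among genes lower in it. Foxa1, a forkhead factor that opens chromatin in endodermal organs and the prostate, had intensities of 8041, 9086 and 10420 in UGE, against 41.1, 44.4, 41.8 and 45.4 in epidermis. Every UGE sample was far above every epidermis sample, and the difference of 7.72 ± 0.25 (adjusted p = 4.01e-14) was the largest in this direction. Clca1, a secreted regulator of chloride conductance in mucous cells, read 2875, 3304 and 5926 in UGE, against 16.6, 19.2, 16.8 and 16.3 in epidermis, a difference of 7.70 ± 0.34 (adjusted p = 2.12e-12). Its 4 epidermis values lay in the floor of the arrays, as did those of Tspan8, a tetraspanin of glandular epithelia, at 2022, 3103 and 4145 in UGE, against 16.1, 13.0, 14.9 and 12.6 in epidermis (7.68 ± 0.26, adjusted p = 9.43e-14). Entpd3, an enzyme that splits extracellular nucleotides, differed by 5.73 ± 0.16 and Mgp, a matrix protein that holds back calcification, by 5.49 ± 0.13. Sox2, a transcription factor of progenitor cells, read 2920, 3525 and 4371 in UGE and 74.1, 72.0, 59.8 and 39.0 in epidermis (5.89 ± 0.22, adjusted p = 2.57e-13).

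In the other direction the largest difference was that of Hrnr, which encodes hornerin, a filaggrin-like protein of the cornified envelope. It read 12.1, 16.3 and 18.1 in UGE, against 6675, 11820, 12940 and 15090 in epidermis, a difference of -9.50 ± 0.38 (adjusted p = 6.45e-13). The UGE values were at the floor in all 6 samples, so the size of the fold is set by the floor. Dsc1, a desmosomal cadherin of the upper epidermis, followed with 14.0, 16.4 and 19.8 in UGE and 6167, 8444, 9810 and 9588 in epidermis (-9.01 ± 0.34, adjusted p = 2.63e-13). Acer1, a ceramidase of the skin, and the serpins Serpinb12 and Serpinb7, which block proteases inside cells, were lower too (-8.59 ± 0.37, -8.44 ± 0.34 and -8.19 ± 0.32). The list went on with Calm4, a calcium-binding protein of the calmodulin family (-8.01 ± 0.37), Sdr16c6, a short-chain dehydrogenase (-8.06 ± 0.39), and Aox4, an aldehyde oxidase (-8.02 ± 0.32). It also held Endou, an endoribonuclease (-7.38 ± 0.27), and Dsg1a, the mouse counterpart of a desmoglein of the outer epidermis (-7.24 ± 0.36). The others were the genes 2310034C09Rik (-8.59 ± 0.85) and 2310011E23Rik (-7.73 ± 0.30).

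**Figure D1:**
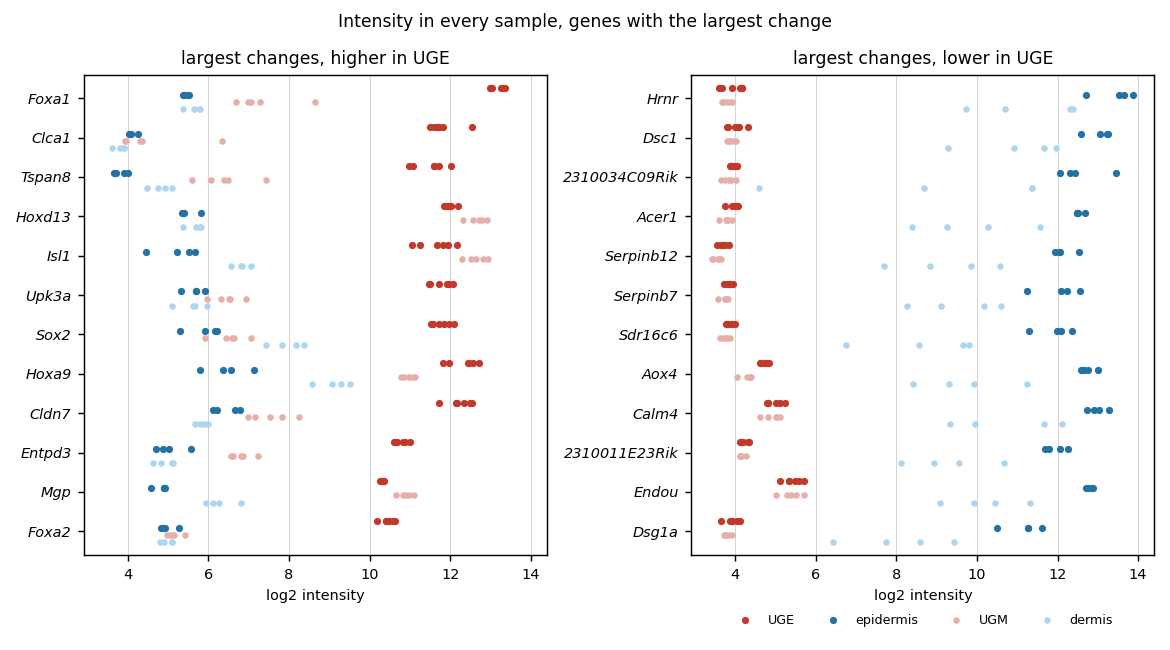
Log2 intensity (horizontal axis) of the genes with the largest differences in each direction, 1 row a gene and 1 point a sample, with UGE, epidermis, UGM and dermis in different colours. Only genes whose groups did not overlap were eligible, so UGE and epidermis points are apart in every row by that choice. Foxa1 lies at 8041 to 10420 in UGE against 41.1 to 45.4 in epidermis.

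Promoters of a few genes are shown to set the upstream letters of genes higher in UGE beside those of genes lower in it: the 250 bases before the start of Foxa1 and Upk3a, among the highest in UGE, of Hrnr and Serpinb12, among the lowest, and of Lor, which encodes the main protein of the cornified envelope and was lower as well. They were taken from RefSeq on the mouse build GRCm38.p6 and run 5′ to 3′ on the strand of the gene. Capitals mark matches, on either strand, to TGTTTNC (the core bound by Foxa proteins), TGANTCA (the site of AP-1, the Fos and Jun dimer), TATAAA (the TATA box) or GCCNNNGGC (bound by AP-2 proteins).
Foxa1, chr12:57546112-57546361, minus strand: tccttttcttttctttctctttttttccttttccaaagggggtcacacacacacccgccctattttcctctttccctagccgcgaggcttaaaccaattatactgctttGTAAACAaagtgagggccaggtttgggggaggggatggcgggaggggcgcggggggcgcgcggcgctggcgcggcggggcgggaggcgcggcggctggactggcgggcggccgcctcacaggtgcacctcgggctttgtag
Upk3a, chr15:85016891-85017140, plus strand: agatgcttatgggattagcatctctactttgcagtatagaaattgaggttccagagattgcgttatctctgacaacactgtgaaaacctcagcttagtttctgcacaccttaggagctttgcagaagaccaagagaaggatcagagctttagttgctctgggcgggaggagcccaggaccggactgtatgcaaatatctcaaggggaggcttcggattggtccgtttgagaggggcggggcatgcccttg
Hrnr, chr3:93319499-93319748, plus strand: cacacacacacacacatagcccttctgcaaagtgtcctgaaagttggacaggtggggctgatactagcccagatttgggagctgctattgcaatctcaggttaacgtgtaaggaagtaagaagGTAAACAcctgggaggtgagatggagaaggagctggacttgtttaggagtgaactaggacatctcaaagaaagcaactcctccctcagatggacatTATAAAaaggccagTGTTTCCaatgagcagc
Lor, chr3:92083143-92083392, minus strand: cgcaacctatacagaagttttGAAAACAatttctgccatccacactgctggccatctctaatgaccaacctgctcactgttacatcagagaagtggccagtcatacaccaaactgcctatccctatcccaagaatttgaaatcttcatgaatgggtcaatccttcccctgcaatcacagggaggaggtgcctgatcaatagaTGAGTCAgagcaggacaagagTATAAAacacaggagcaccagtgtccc
Serpinb12, chr1:106934199-106934448, plus strand: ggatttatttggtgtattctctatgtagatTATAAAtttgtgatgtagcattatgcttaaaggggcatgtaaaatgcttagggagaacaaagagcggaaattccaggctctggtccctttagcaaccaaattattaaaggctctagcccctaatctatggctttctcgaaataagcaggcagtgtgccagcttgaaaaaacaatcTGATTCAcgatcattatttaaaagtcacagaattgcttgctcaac
In the Foxa1 window a match to the Foxa core began 141 bases before the start. The Upk3a window held none of the 4 motifs. Hrnr had a TATA box 31 bases before its start and Foxa core matches at 127 and 17 bases, and Lor a TATA box at 27 bases, an AP-1 match at 48 bases and a Foxa core match at 229 bases. Serpinb12, which has 2 annotated starts and is shown at the first, had an AP-1 match at 45 bases and a TATA box at 220 bases. No 2 of these matches overlap, and a match is a run of letters and not a measured site.

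The same letters were searched in the promoters of the longer lists. Of the 56 genes of the keratin, cornified envelope, barrier lipid and protease lists that were lower in UGE, 41 had a promoter in the table: 10 of them (24.4%) held the AP-1 letters, 12 (29.3%) the TATA box, 6 (14.6%) the Foxa core and 7 (17.1%) the AP-2 letters. Over all 27025 genes with a promoter the shares were 7.82%, 14.3%, 19.9% and 15.4% in the same order. The 10 promoters with AP-1 letters belonged to Dmkn, Ivl, Krt13, Krtdap, Lor, Sbsn, Serpinb12, Serpinb2, Sprr1b and Sult2b1. Of the 18 sinus regulators and uroplakin genes that were higher in UGE, 9 had a promoter, with 2 (22.2%) holding the Foxa core, 3 (33.3%) the AP-2 letters, 1 (11.1%) a TATA box and 0 the AP-1 letters. These shares are a description of the letters in 250 bases, and neighbouring genes of 1 cluster share ancestry.

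Among regulators of the sinus epithelium, 12 of 21 measured genes were higher in UGE and 1 was lower (median difference 1.47, against -0.04 over all genes read once). Shh, the secreted Hedgehog ligand with which the sinus epithelium signals to its mesenchyme, read 9337, 11270 and 13440 in UGE and 326, 275, 243 and 367 in epidermis, a difference of 5.20 ± 0.28 (adjusted p = 2.86e-11). Foxa2, a close relative of Foxa1, read 1161, 1391 and 1592 in UGE, against 38.4, 29.3, 28.2 and 30.3 in epidermis (5.48 ± 0.11, adjusted p = 1.25e-16). Isl1, a LIM homeodomain factor, read 2122, 3443 and 4572 in UGE and 50.3, 45.6, 37.2 and 21.9 in epidermis (6.44 ± 0.23). None of the 3 overlapped between the tissues. Tbx3, a T-box factor of budding organs (5.09 ± 0.17), Ehf and Elf3, both Ets factors of epithelia (3.67 ± 0.47 and 2.44 ± 0.17), and the GATA factors Gata2 and Gata6 (3.40 ± 0.18 and 1.68 ± 0.20) were also higher. Ehf spread widely in epidermis, at 44.6, 102, 108 and 283, and every epidermis sample remained under the lowest UGE sample. Sox9, a factor of prostate buds and of hair placodes, was near the 2-fold limit (215, 289.9 and 416 in UGE, against 174, 148, 122 and 137 in epidermis, 1.06 ± 0.15), and its change was under 2-fold without UGE replicate 2 (0.97) and without epidermis replicate 3 (0.98). The member that was lower, Creb3l1, a membrane-bound transcription factor of secretory cells, was dim and overlapped between the groups (39.9, 48.6 and 88.3 in UGE, against 228, 115, 149 and 82.5 in epidermis, -1.25 ± 0.26). Klf5, which is at work in both bladder and skin, read 4158, 4858 and 5116 in UGE and 4036, 4103, 3944 and 3890 in epidermis and was not called (0.25 ± 0.22, adjusted p = 0.392).

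Posterior Hox genes followed. Of 14 measured genes of groups 9 to 13, 7 were higher in UGE and 0 were lower (median difference 1.37). Hoxd13, the last gene of its cluster and needed in mice for the genital tract, read 3649, 3985 and 4677 in UGE, against 55.9, 40.6, 41.3 and 41.8 in epidermis (6.50 ± 0.12, adjusted p = 9.06e-17). Hoxa9 read 3589, 5620 and 6707 in UGE and 93.5, 82.7, 140.5 and 55.1 in epidermis (5.87 ± 0.23), and Hoxb13, a marker of the prostate, 849, 1254 and 1993 in UGE and 33.3, 32.8, 33.8 and 38.4 in epidermis (5.23 ± 0.20). The groups stood apart by more than an order of magnitude in all 3 genes. Hoxa10, Hoxd10, Hoxd9 and Hoxa11 were higher by 3.27, 2.94, 2.27 and 2.09. Hoxa13 read 47.7, 54.3 and 88.7 in UGE and 38.0, 33.7, 38.6 and 34.7 in epidermis and did not reach a 2-fold change (0.66 ± 0.15). Hoxc13, a regulator of hair keratins, pointed the other way at low intensities (33.9, 36.0 and 43.8 in UGE, against 61.6, 61.1, 51.2 and 70.9 in epidermis, -0.70 ± 0.11) and was not called.

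The Hox genes of groups 4 to 8 did not follow 1 direction: of 12 measured, 4 were lower in UGE and 2 higher. The lower ones were Hoxc8 (14.5, 16.1 and 19.9 in UGE and 310.5, 447, 364 and 373 in epidermis, -4.48 ± 0.19, adjusted p = 1.10e-12), Hoxc4 (-2.83 ± 0.18), Hoxc5 (-2.42 ± 0.21) and Hoxa4 (-2.11 ± 0.16). The call of Hoxc5 was lost when another of its probe sets or their mean was read. The higher ones were Hoxd8 (897, 1085 and 1284 in UGE and 271, 267, 249 and 209 in epidermis, 2.12 ± 0.14) and Hoxb5 (1.41 ± 0.20). The lower ones thus belonged to the Hoxc cluster except for Hoxa4.

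Genes of the urothelial surface were higher in UGE for 6 of 11 measured members and lower for 1. Upk3a, a subunit of the uroplakin plaque, read 2828, 3608 and 4261 in UGE, against 51.5, 40.2, 52.0 and 59.8 in epidermis, a difference of 6.12 ± 0.18 (adjusted p = 1.91e-14). The plaque subunits Upk1a and Upk2 were higher by 2.94 ± 0.09 and 2.16 ± 0.10 and the uroplakin-like Upk3bl by 1.19 ± 0.23, all without overlap. Upk1b, the partner of Upk3a in the plaque, was bright in both tissues, at 8600, 9030 and 11680 in UGE and 3312, 4340, 5466 and 5898 in epidermis, and missed the threshold on p (1.01 ± 0.33, adjusted p = 0.0204). Its samples did not overlap, but the standard error of the fit pools the spread of all 4 groups, mesenchyme included. Snx31, a sorting nexin of umbrella cells, was higher by 2.33 ± 0.13. The member that was lower was Adgrf4, an adhesion receptor, at 91.1, 149 and 271 in UGE and 506, 733, 999 and 1076 in epidermis (-2.31 ± 0.32).

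The keratins of simple epithelia, the filaments of single-layered and luminal cells, were higher in UGE for 4 of 6 measured genes. Krt8 read 13970, 15940 and 17260 in UGE and 1629, 1590, 2277 and 2284 in epidermis (3.05 ± 0.26, adjusted p = 2.62e-08), and its partner Krt18 6141, 7426 and 8029 in UGE and 502, 431, 657 and 719.5 in epidermis (3.69 ± 0.24, adjusted p = 6.30e-10). Krt19 and Krt7 were higher by 1.85 ± 0.38 and 1.38 ± 0.36 from intensities that were already above 1000 in every epidermis sample. Krt23 was the exception, at 62.5, 80.8 and 94.9 in UGE and 450.4, 357, 400.2 and 875 in epidermis (-2.64 ± 0.29). Epcam, an adhesion molecule of simple epithelia, was higher as well (2417, 2936 and 3771 in UGE, against 424, 486, 492 and 722 in epidermis, 2.54 ± 0.28).

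Secretory and mucous genes were higher in 8 of 21 measured cases and lower in 1, while the median of the list was -0.04, as over all genes. Besides Clca1 they were Wfdc2, a small secreted protease inhibitor (2196, 2603 and 3484 in UGE, against 154, 105, 100 and 82.5 in epidermis, 4.66 ± 0.21), the mucins Muc4 (3.19 ± 0.21) and Muc1 (1.08 ± 0.25), Agr2, which folds mucins (2.88 ± 0.26), Prom1 (2.52 ± 0.21), the chloride channel Cftr (2.16 ± 0.27) and Cyp2f2 (1.38 ± 0.23). Muc4 and Agr2 were dim in UGE too, at 75.8, 126 and 220.1 and 64.6, 121 and 193. Clca2, a relative of Clca1 that basal and stratified epithelia carry, ran the other way (161, 349.8 and 454 in UGE, against 748, 1045, 1195 and 1423 in epidermis, -1.86 ± 0.35).

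The keratins of stratified epithelia were lower in UGE for 10 of 16 measured genes and higher for 1. Krt10 and Krt1, the pair that marks cells leaving the basal layer, read 455, 548 and 724 and 318, 420.4 and 525 in UGE, against 26570, 29620, 28180 and 30710 and 16640, 17490, 12000 and 17110 in epidermis. The differences were -5.65 ± 0.17 (adjusted p = 1.85e-14) and -5.24 ± 0.29 (adjusted p = 6.67e-11), and no UGE sample came near the epidermis. Krt77, a partner of Krt10 in embryonic skin, read 38.0, 46.3 and 60.7 in UGE and 3802, 3502, 3185 and 4580 in epidermis (-6.32 ± 0.37). Krt14, the basal keratin, was present in both, with 1441, 1927 and 2117 in UGE and 13710, 10720, 8922 and 12720 in epidermis (-2.62 ± 0.20, adjusted p = 4.92e-09). Krt13, Krt6a, Krt80, Krt6b, Krt16 and Krt78 were lower by 1.21 to 2.81. The one that was higher was Krt75, at 1189, 1473 and 2626 in UGE and 75.5, 72.9, 57.0 and 66.7 in epidermis (4.54 ± 0.17, adjusted p = 2.73e-13), a keratin better known from the companion layer of the hair follicle.

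Other keratins and p63 itself did not pass the test. Krt5, the partner of Krt14, read 6146, 7600 and 10820 in UGE and 15290, 14540, 12560 and 17190 in epidermis, a difference of -0.95 ± 0.30 with a 95% interval of -1.58 to -0.33 (adjusted p = 0.0168). Krt15, a basal keratin, read 14730, 17560 and 20010 in UGE and 10960, 11430, 10790 and 14310 in epidermis (0.56 ± 0.45, interval -0.39 to 1.50), and Krt4, of the upper layers of mucosal epithelia, 15300, 16930 and 19850 in UGE and 9343, 10050, 14110 and 13620 in epidermis (0.55 ± 0.47). The samples of these 3 genes did not overlap, but the standard error of the fit pools the spread of all 4 groups, mesenchyme included. Trp63, the gene of p63, on which every stratified epithelium depends, read 2264, 3739 and 4110 in UGE and 2908, 5162, 4710 and 7198 in epidermis with overlap (-0.53 ± 0.34, interval -1.23 to 0.17, adjusted p = 0.235). The intervals of Krt5, Krt15 and Trp63 all include changes of 2-fold in 1 direction, so an equal level was not shown. Among 16 genes of epithelial identity, the 3 with the smallest change were the cadherins Cdh3 (-0.02 ± 0.11, interval -0.24 to 0.21) and Cdh1 (0.17 ± 0.30, interval -0.46 to 0.80) and the integrin Itga6 (-0.16 ± 0.20, interval -0.57 to 0.25). Cdh1 read 6816, 7561 and 8085 in UGE and 5805, 7208, 7367 and 6460 in epidermis, and all 3 overlapped between the tissues. Of the whole list 3 were higher, 3 lower and 10 not called.

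**Figure D2:**
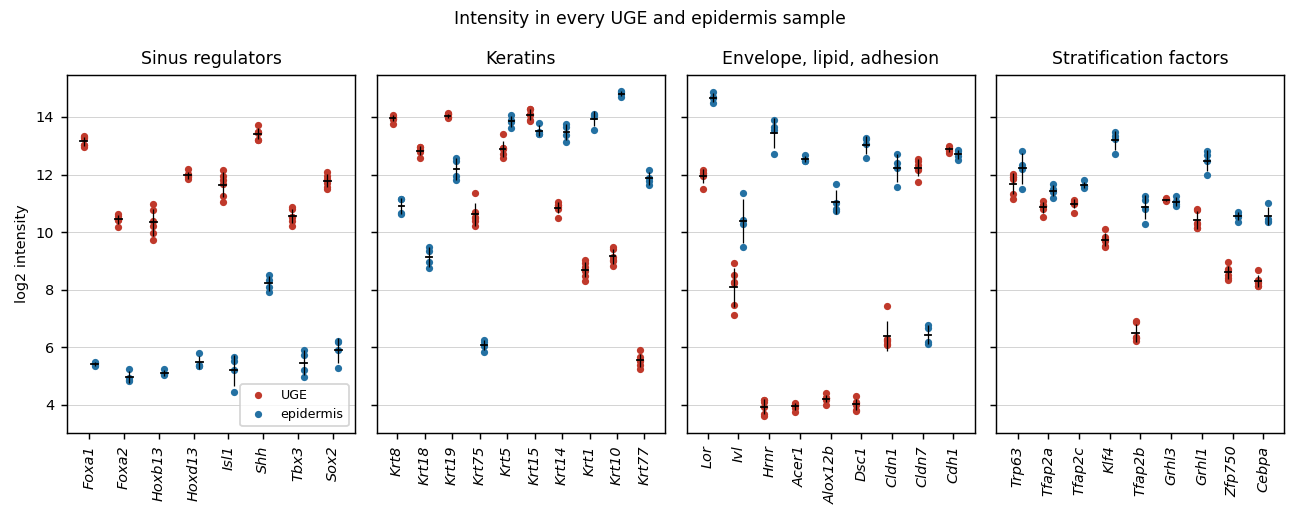
Log2 intensity (vertical axis) of genes grouped by role, 1 point a sample, with the 6 UGE samples left of the 4 epidermis samples for each gene; the bar is the mean and the line 1 SD. The sinus regulators and Krt8, Krt18 and Krt75 lie higher in UGE, Krt1, Krt10, Krt77, Hrnr, Acer1 and Dsc1 lower, and Trp63, Cdh1 and Grhl3 overlap.

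Genes of the cornified envelope, the protein shell of dead surface cells, were lower in UGE for 18 of 36 measured members and higher for 0 (median difference -1.22). Lor, which encodes loricrin, its main protein, read 2900, 4160 and 4567 in UGE, against 23030, 25570, 26670 and 29530 in epidermis (-2.72 ± 0.23, adjusted p = 2.28e-08). Loricrin was thus far above the floor in UGE and Hrnr was not. Ivl, the early envelope protein involucrin, read 138, 304 and 483 in UGE and 718, 1252, 1360 and 2646 in epidermis (-2.31 ± 0.49, adjusted p = 0.00108). Dmkn and Krtdap, secreted proteins of the spinous and granular layers, differed by -7.08 ± 0.19 and -6.56 ± 0.31, and Sbsn, which lies beside Dmkn, by -4.12 ± 0.27. Cnfn, a late envelope component, differed by -6.49 ± 0.35, and the small proline-rich Sprr1b by -6.09 ± 0.37. The transglutaminases that cross-link the shell were both lower, Tgm3 (44.9, 56.5 and 67.0 in UGE, against 661, 606, 595 and 547 in epidermis, -3.46 ± 0.20) and Tgm1 (249.6, 273 and 304 in UGE, against 1142, 1333, 1537 and 1557 in epidermis, -2.35 ± 0.27). The other 18 did not pass the test.

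The enzymes that make and process barrier lipids were lower in UGE for 18 and higher for 4 of 27 measured genes (median difference -2.07). Acer1 read 13.4, 15.9 and 16.7 in UGE, against 6587, 5723, 5868 and 5721 in epidermis (-8.59 ± 0.37, adjusted p = 1.59e-12). Alox12b, the lipoxygenase that starts the attachment of ceramides to the envelope, read 16.2, 18.8 and 21.5 in UGE and 1684, 1776, 2082 and 3227 in epidermis (-6.83 ± 0.45), and Elovl4, which lengthens fatty acids beyond the usual chains, 44.0, 58.2 and 63.3 in UGE and 3313, 5395, 5693 and 5878 in epidermis (-6.46 ± 0.29). In these 3 genes every UGE sample was dim and every epidermis sample more than an order of magnitude brighter. The lipase Lipm (-6.28 ± 0.29), the phospholipase Pla2g2f (-4.81 ± 0.33), the transporter Abca12, which loads lamellar granules (-2.72 ± 0.26), Pnpla1 (-3.65 ± 0.25) and Abhd5 (-2.73 ± 0.14) were lower too. Cers3, the ceramide synthase of the epidermis, read 1221, 1624 and 1813 in UGE and 2046, 2745, 2855 and 3251 in epidermis and was not called (-0.81 ± 0.34, adjusted p = 0.0736). The 4 that were higher were Sgms2, a sphingomyelin synthase (2.49 ± 0.20), Cers4, another ceramide synthase (2.46 ± 0.15), Degs2 (1.22 ± 0.24) and Fa2h (1.19 ± 0.16), enzymes that add hydroxyl groups to ceramides and fatty acids.

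Proteases and inhibitors of the skin were lower in UGE for 10 of 24 measured genes and higher for 4. The inhibitors led: Serpinb12 read 11.7, 13.1 and 14.3 in UGE and 3910, 4281, 4222 and 5938 in epidermis (-8.44 ± 0.34), Serpinb2 12.2, 13.7 and 16.4 in UGE and 931, 1671, 2120 and 2045 in epidermis (-6.86 ± 0.38), and Spink5, which restrains the kallikreins, 22.9, 34.6 and 49.7 in UGE and 903, 2006, 2262 and 4011 in epidermis (-5.88 ± 0.51). Serpinb3a differed by -5.82 ± 0.34 and the kallikrein Klk5 by -4.00 ± 0.24. The members that were higher formed another group: the membrane proteases St14 (matriptase, 1.15 ± 0.21) and Prss8 (prostasin, 1.51 ± 0.30), their inhibitor Spint1 (1.01 ± 0.28) and Ctse, an aspartic protease (740, 954 and 1300 in UGE, against 77.2, 73.3, 70.0 and 65.7 in epidermis, 3.73 ± 0.14). A second probe set of Ctse pointed the other way (-1.61). Spint1 sat at the 2-fold limit, and its call was lost when any single sample other than UGE replicate 5 was left out (adjusted p 0.0104 to 0.0238 in these fits).

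Adhesion genes were called in both directions. Of 14 measured desmosome genes 10 were lower in UGE and 2 higher. Dsc1, Dsg1a and Dsg1b, of the upper epidermis, differed by -9.01 ± 0.34, -7.24 ± 0.36 and -5.11 ± 0.30, and the basal Dsc3 read 36.7, 94.4 and 117 in UGE and 3621, 6479, 6772 and 8017 in epidermis (-6.26 ± 0.38). The plaque genes Pkp1, Pkp3 and Jup and the membrane protein Perp were lower by 1.04 to 1.59, and Dsp differed by -0.50 ± 0.27 without a call. Pkp2 and Dsg2, the plakophilin and desmoglein of simple epithelia, were higher: Pkp2 read 681, 749 and 927 in UGE, against 69.5, 65.4, 79.4 and 59.0 in epidermis (3.48 ± 0.14, adjusted p = 8.59e-13), and Dsg2 2004, 2605 and 3248 in UGE, against 888, 1284, 1105 and 1591 in epidermis (1.09 ± 0.25, adjusted p = 0.00171). Tight junction genes had 6 of 20 measured members higher and 1 lower. Cldn7, a claudin of simple and transitional epithelia, read 3390, 4904 and 5895 in UGE and 101, 69.4, 73.5 and 111 in epidermis (5.79 ± 0.21), and Cldn6, Cldn8, Cldn3, Marveld2 and Marveld3 were higher by 1.29 to 4.13. Cldn1, without which mouse skin loses water, was the one that was lower, at 67.4, 76.0 and 172 in UGE and 3037, 4845, 5372 and 6722 in epidermis (-5.83 ± 0.28, adjusted p = 6.55e-12). Of 8 measured connexin genes 4 were lower, Gjb2 (252, 323 and 401 in UGE, against 4316, 5171, 5632 and 6842 in epidermis, -4.10 ± 0.23), Gjb5 (-3.86 ± 0.35), Gjb6 (-2.91 ± 0.21) and Gja1 (-1.14 ± 0.11), and Gjc1 was higher (1.53 ± 0.13). The 6 probe sets of Gja1 were all lower but differed in size, between -1.02 and -3.05. Of 14 genes of adhesion to the basement membrane, Lama5 (1.93 ± 0.13), Cd151 (1.16 ± 0.17) and Itgb6 (1.06 ± 0.25) were higher and the hemidesmosome collagen Col17a1 lower (-1.75 ± 0.20). The other 10, the integrin Itgb4 among them (-0.28 ± 0.23), were not called.

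Transcription factors of the ectoderm and of stratification were lower in UGE for 13 of 30 measured genes and higher for 1. Tfap2b, an AP-2 factor of ectoderm and neural crest, read 74.8, 80.7 and 121 in UGE and 1252, 2236, 1791 and 2448 in epidermis (-4.37 ± 0.20, adjusted p = 4.69e-12). Its relatives Tfap2a and Tfap2c were well expressed in both tissues, at 1470, 1924 and 2147 and 1637, 2105 and 2207 in UGE and 2353, 2875, 2685 and 3245 and 3082, 2989, 3104 and 3603 in epidermis, and were not called (-0.58 ± 0.18 and -0.65 ± 0.21). Klf4, needed in mice for the skin barrier, read 715, 845 and 1114 in UGE and 6743, 9586, 10360 and 11470 in epidermis (-3.46 ± 0.17, adjusted p = 1.27e-11). Pou3f1, Cebpa, Cebpb, Grhl1, Foxn1, Zfp750, Prdm1, Hopx and Ovol1, all factors of keratinocytes, were lower by 1.62 to 2.36, and Prdm1 overlapped between the groups. The list also held Scel, an envelope protein rather than a factor (-3.50 ± 0.51). The homeobox factor Dlx5 differed by -2.36 ± 0.44. Other factors on which the barrier depends did not differ beyond the threshold: Grhl3 read 2148, 2224 and 2322 in UGE and 1906, 2021, 2174 and 2447 in epidermis (0.07 ± 0.32), Ripk4, a kinase upstream of p63 targets, 6371, 6744 and 7854 in UGE and 5804, 5051, 4400 and 4880 in epidermis (0.47 ± 0.33), and Grhl2 1312, 1391 and 1689 in UGE and 624, 795, 735 and 740.3 in epidermis (0.98 ± 0.14, adjusted p = 2.17e-05), just short of 2-fold. Msx2, a homeobox factor, was the one that was higher (1009, 1122 and 2256 in UGE, against 228, 205, 174 and 184 in epidermis, 2.80 ± 0.22), and UGE replicates 2 and 3 read 2201 and 2256.

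Pathway genes were called in both directions. Of 51 measured Wnt genes 12 were higher in UGE and 7 lower (median difference 0.25). Among the receptors, Lgr5, which binds R-spondins on progenitor cells, read 667, 836 and 1004 in UGE and 41.0, 63.4, 57.6 and 67.2 in epidermis (3.88 ± 0.13, adjusted p = 6.34e-14), Lgr4 was higher by 1.70 ± 0.21, and Lgr6, its relative in hair follicles, was lower (58.5, 67.0 and 107 in UGE, against 282, 382, 274 and 477 in epidermis, -2.22 ± 0.20). Ror2, a receptor of Wnt5a, was higher by 3.11 ± 0.24, and the secreted inhibitors Sfrp2 and Sfrp1 by 3.60 ± 0.23 and 2.03 ± 0.20. Of the ligands, Wnt4 (7741, 8903 and 9555 in UGE, against 4326, 4192, 3689 and 4011 in epidermis, 1.12 ± 0.16) and Wnt5a (2.02 ± 0.31) were higher and Wnt3 (-2.11 ± 0.16), Wnt16 (-1.89 ± 0.17) and Wnt3a (-1.07 ± 0.12) lower. The nuclear factor Lef1, expressed in hair placodes, read 102, 133 and 289 in UGE and 613, 664, 535 and 859 in epidermis (-2.04 ± 0.25). Axin2, a general target of the pathway, was lower (-1.02 ± 0.21, adjusted p = 7.45e-04) with overlap, since UGE replicates 2 and 3 read 1190 and 992. Its difference was -1.35 without these samples and -0.36 with them as the only UGE samples.

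Of 36 genes of the BMP and TGF-beta pathways 10 were higher and 5 lower. A pair of antagonists was lower: Sostdc1, which marks the cells around hair placodes, read 32.3, 41.0 and 57.3 in UGE and 1631, 1794, 1474 and 1753 in epidermis (-5.29 ± 0.14, adjusted p = 2.99e-15), and Fst 72.1, 86.1 and 115 in UGE and 1029, 1162, 727 and 1122 in epidermis (-3.48 ± 0.17, adjusted p = 1.08e-11). The ligands Bmp2 and Bmp7 differed by -2.05 ± 0.20 and -1.18 ± 0.11, and Bmp4 was higher by 1.34 ± 0.30. Genes that BMP signals induce were higher in UGE, Id1, Id2 and Id3 by 1.35 ± 0.15, 1.11 ± 0.11 and 2.09 ± 0.18 and the inhibitory Smad6 and Smad7 by 2.10 ± 0.14 and 1.72 ± 0.12, each without overlap. Id3 read 4208, 4520 and 6040 in UGE and 1764, 1102, 869 and 996 in epidermis.

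In the Hedgehog pathway, of 15 measured genes 4 were higher and 4 lower. Besides the ligand Shh, the transducer Smo (1.36 ± 0.14), Gli3 (1.05 ± 0.16) and the inhibitor Sufu (1.02 ± 0.13) were higher. Of the other transcription factors of the pathway, Gli1, itself a target of the signal, was lower at 54.0, 75.9 and 142 in UGE and 248, 253, 199.5 and 227 in epidermis (-1.45 ± 0.23), and Gli2 was lower at 64.2, 649, 555, 35.0, 33.7 and 33.9 in UGE replicates 1 to 6, against 2006, 2416, 1969 and 2456 in epidermis (-4.48 ± 0.70, adjusted p = 4.54e-05). The co-receptor Gas1 had the same shape, with 288, 1617, 1354, 138, 199.6 and 189 in UGE and 5480, 4938, 4165 and 5480 in epidermis (-3.69 ± 0.53). In both genes the 2 high UGE values were those of replicates 2 and 3, and the difference was -1.87 for Gli2 and -1.75 for Gas1 with these 2 UGE samples alone, and -5.78 and -4.66 without them. With the methods' t-test on the 10 samples, adjusted over all probe sets, the calls of Gli2, Gas1 and Gli1 were lost, as they were with the replicate number as a block. Of 20 hair placode and germ genes 4 were higher, Shh, Lgr5, Smo and Sox9, and 6 lower, Sostdc1, Ccn2, Bmp2, Lef1, Dkk4 and Gli1, all but Ccn2 and Dkk4 already given. Ccn2, a matrix-associated growth modulator, differed by -3.06 ± 0.34 and Dkk4, a Wnt inhibitor of placodes, by -2.00 ± 0.16 at low intensities.

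Of 28 Notch genes 3 were higher and 4 lower. The ligands Dll1 (58.8, 93.4 and 113 in UGE, against 374, 512, 420.3 and 737 in epidermis, -2.45 ± 0.18) and Jag1 (-1.31 ± 0.17) were lower, as was Nrarp, a target that damps the pathway (1090, 1209 and 1475 in UGE, against 6521, 6775, 7655 and 6089 in epidermis, -2.44 ± 0.19, adjusted p = 6.52e-09). Dtx4, Hes6 and Hey1 were higher by 2.41 ± 0.18, 2.08 ± 0.18 and 1.47 ± 0.16. Of 32 FGF and ErbB genes 4 were higher, Fgf1 (2.41 ± 0.21), Fgf13 (2.21 ± 0.21), Fgf9 (2.16 ± 0.52) and the receptor Fgfr2 (1.16 ± 0.17), and 5 lower. The lower ones were ligands of ErbB receptors, Ereg (25.6, 36.3 and 67.7 in UGE, against 251, 423, 296 and 969 in epidermis, -3.36 ± 0.37), Epgn (-1.80 ± 0.16) and Nrg4 (-1.67 ± 0.14), the receptor Egfr itself (135, 237 and 379.6 in UGE, against 589.6, 1205, 1183 and 1327 in epidermis, -2.18 ± 0.31) and Fgfbp1, a carrier of FGFs (-2.99 ± 0.21). Egfr stood well above the floor in every sample of both tissues. Fgf9 read 822 and 748 in UGE replicates 2 and 3 and 75.6 to 145 in the other UGE samples, and its difference was 1.21 without these replicates. Its call was lost with only the 10 UGE and epidermis samples in the limma fit (adjusted p = 0.0296).

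The enzymes that make retinoic acid set the tissues apart. All 3 aldehyde dehydrogenases of this step were higher in UGE: Aldh1a2 read 732, 872 and 1172 in UGE and 38.7, 32.8, 35.6 and 35.5 in epidermis (4.66 ± 0.11, adjusted p = 1.30e-15), Aldh1a3 458, 837 and 1721 in UGE and 28.9, 34.6, 26.3 and 23.9 in epidermis (4.96 ± 0.32), and Aldh1a1 849.9, 944 and 1150 in UGE and 68.3, 64.3, 39.2 and 76.1 in epidermis (4.00 ± 0.24). The receptor Rarb and the reductase Dhrs3, both induced by retinoic acid, were higher by 2.90 ± 0.27 and 2.52 ± 0.14. Of the 19 measured genes 5 were higher and 3 lower, the lower ones being Cyp26b1, which breaks retinoic acid down (-1.34 ± 0.20), and the binding proteins Rbp2 (-1.38 ± 0.16) and Crabp1 (-3.59 ± 0.68). Crabp1 overlapped between the groups, with 33.0, 207, 236, 21.2, 18.7 and 23.0 in UGE replicates 1 to 6 and 1469, 602, 818 and 174 in epidermis, and differed by -1.43 with UGE replicates 2 and 3 alone and by -4.67 without them.

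Transport genes were higher in UGE for 10 of 30 measured members and lower for 5. The epithelial sodium channel showed both directions: its subunits Scnn1g (539.5, 669 and 704 in UGE, against 54.9, 51.4, 48.2 and 44.3 in epidermis, 3.68 ± 0.13, adjusted p = 1.56e-13) and Scnn1b (2.35 ± 0.15) were higher, and Scnn1a was lower (147, 188 and 217 in UGE, against 652, 676, 538 and 793 in epidermis, -1.84 ± 0.21, adjusted p = 1.40e-06). Carbonic anhydrases divided as well, with Car2 higher by 3.69 ± 0.32 and Car12 lower (-3.48 ± 0.16). The urea transporter Slc14a1, known from the bladder, was higher by 3.31 ± 0.15, and the water channel Aqp3, known from the epidermis, lower (256, 307 and 339 in UGE, against 1068, 999.9, 1186 and 1213 in epidermis, -1.87 ± 0.22). Cell cycle genes gave 1 call in each direction of 31 measured, Tyms (1.51 ± 0.28) and Kif11 (-1.47 ± 0.33), with a median difference of -0.23. Immediate early and stress genes, many of which respond within minutes to handling, were lower in UGE for 8 of 27 measured and higher for 2. Fos read 1129, 1287 and 2027 in UGE and 4591, 6684, 7661 and 15220 in epidermis (-2.43 ± 0.47, adjusted p = 3.91e-04), Hspa1a, a heat shock protein, 586, 660.4 and 1101 in UGE and 4734, 4474, 4319 and 4918 in epidermis (-2.69 ± 0.33) and Myc 138, 241 and 296 in UGE and 1316, 1114, 1084 and 1059 in epidermis (-2.37 ± 0.17), while Jun was higher (1.34 ± 0.23) and Cirbp, an RNA-binding protein induced by cold, too (1.39 ± 0.21). Epidermis replicate 4 was the highest of all 10 samples in Fos. In the mesenchymes 12 of the 27 stress genes were lower in UGM than in dermis and 0 higher. Over all probe sets tested, 5.37% were lower in UGM and 6.78% higher. The median difference of the stress genes was -0.68 between the mesenchymes and -0.30 between the epithelia. The part of the 2 separation methods in these genes was not tested. Of 19 genes of hypoxia and glycolysis, Egln3 and Ndrg1 were lower (-1.83 ± 0.24 and -1.31 ± 0.17) and none was higher.

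**Figure D3:**
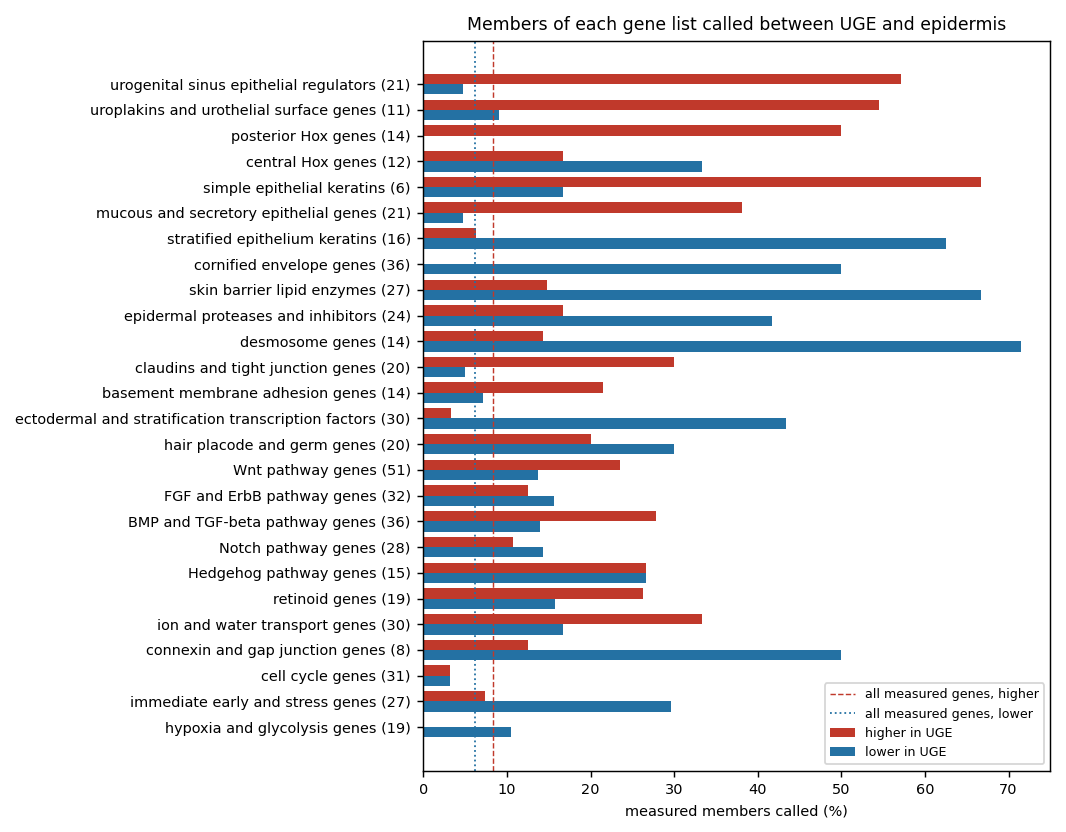
Share of the measured members of each gene list that were called higher or lower in UGE than in epidermis (percent, horizontal axis), with the number of members in brackets. The dashed and dotted lines are the shares over all 17360 genes, 8.28% higher and 6.12% lower; barrier lipid enzymes (18 of 27 lower), desmosome genes (10 of 14 lower) and posterior Hox genes (7 of 14 higher) lie far from them and cell cycle genes below them.

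Whether a difference between the sites was particular to the epithelium was tested as the interaction, the difference of UGE and epidermis minus that of UGM and dermis, in the same fit. Between the mesenchymes 5049 probe sets (12.2%) were called, 2818 higher and 2231 lower in UGM (6.78% and 5.37%), and the interaction was called for 3870 (9.31%), 2139 positive and 1731 negative (5.15% and 4.17%). Of the 2902 probe sets higher in UGE than in epidermis, 1069 were also called higher in UGM than in dermis and 71 called the opposite way. The interaction was called with the same sign in 1086 of them and with the opposite sign in 69. Of the 2082 lower in UGE, 928 were also called lower in UGM than in dermis, 25 the opposite way, and 635 had an interaction of the same sign, 103 of the opposite. In 991 of the higher probe sets the mean was higher in UGM than in UGE, and in 476 of the lower ones higher in dermis than in epidermis. Markers of the epidermis were not confined to it: they had a median log2 intensity of 11.37 to 13.35 in dermis and 5.33 to 5.98 in UGM, and their part in the difference between the mesenchymes was not tested. The 8 sinus markers had a median log2 intensity of 7.47 to 9.35 in UGM, with replicate 2 highest, and 5.72 to 6.38 in dermis.

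Among the sinus genes, Foxa1, Foxa2, Shh, Hoxb13, Sox2, Upk3a, Tspan8, Clca1 and Lypd2 differed far more in the epithelium than in the mesenchyme. Among genes also called between the epithelia, the positive interaction was largest for Sox2 at 7.31 ± 0.32 (adjusted p = 1.05e-11), with a mesenchymal difference of -1.42. Next came Clca1 (6.92 ± 0.48), Tspan8 (6.11 ± 0.38), Foxa1 (6.03 ± 0.36, adjusted p = 5.64e-10), Shh (5.64 ± 0.40) and Lypd2, a small surface protein (5.35 ± 0.27). Hoxd13, Isl1 and Krt18 were different: Hoxd13 was higher by 6.50 in the epithelium and 6.99 in the mesenchyme (interaction -0.49 ± 0.18, adjusted p = 0.0664), Isl1 by 6.44 and 5.83, and Krt18 by 3.69 and 2.96, none with a call for the interaction. Krt18 is one of the sinus markers, and the part of sinus epithelium within the UGM samples in its mesenchymal difference was not tested. Hoxa9 took a middle place, at 5.87 and 1.86 (interaction 4.01 ± 0.33). Aldh1a2 differed by 4.66 in the epithelium and by 6.10 in the mesenchyme (interaction -1.43 ± 0.17, adjusted p = 2.71e-06).

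At the other end were genes high in epidermis whose mesenchymes did not differ in that way. Gng4, a G protein subunit, read 39.9, 49.4 and 66.3 in UGE and 6004, 6716, 7529 and 8126 in epidermis (-7.14 ± 0.30) and -0.84 between the mesenchymes (interaction -6.30 ± 0.43, adjusted p = 3.45e-09). Fap, a membrane protease best known from fibroblasts, read 22.2, 29.3 and 51.5 in UGE and 1477, 2135, 2592 and 2237 in epidermis (-6.07 ± 0.18), with 1165, 1167, 1128, 1172 and 959 in the UGM samples and 1375, 1464, 1716 and 1738 in the dermis samples (interaction -5.58 ± 0.26). All 4 epidermis samples lay far above the UGE samples in Fap, and they overlapped with the dermis samples. Slc2a3, a glucose transporter (-5.19 ± 0.54, interaction -6.41 ± 0.77), and Nalcn, a sodium leak channel (-3.07 ± 0.21, interaction -5.87 ± 0.31), were lower in UGE and higher in UGM, by 1.22 and 2.81. Tcf21, a factor of urogenital mesenchyme, and Nefl, a neurofilament of neurons, were higher in UGE by 2.91 ± 0.79 and 1.44 ± 0.34 but by 8.32 and 6.92 in UGM over dermis, which gave interactions of -5.41 ± 1.15 and -5.48 ± 0.49. The calls of Tcf21 and Nefl between UGE and epidermis were lost with only the 10 UGE and epidermis samples in the limma fit (adjusted p = 0.0529 for Tcf21 and 0.0178 for Nefl). Tcf21 read 675, 919, 971, 42.5, 43.9 and 45.2 in UGE replicates 1 to 6, high in replicates 1 to 3 and highest in replicates 2 and 3. Without replicates 2 and 3, but with replicate 1, Tcf21 differed by 1.76 and lost its call (adjusted p = 0.0241 in limma). The difference of Slc2a3 was -6.11 without replicates 2 and 3 and -3.35 with them alone.

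**Figure D4:**
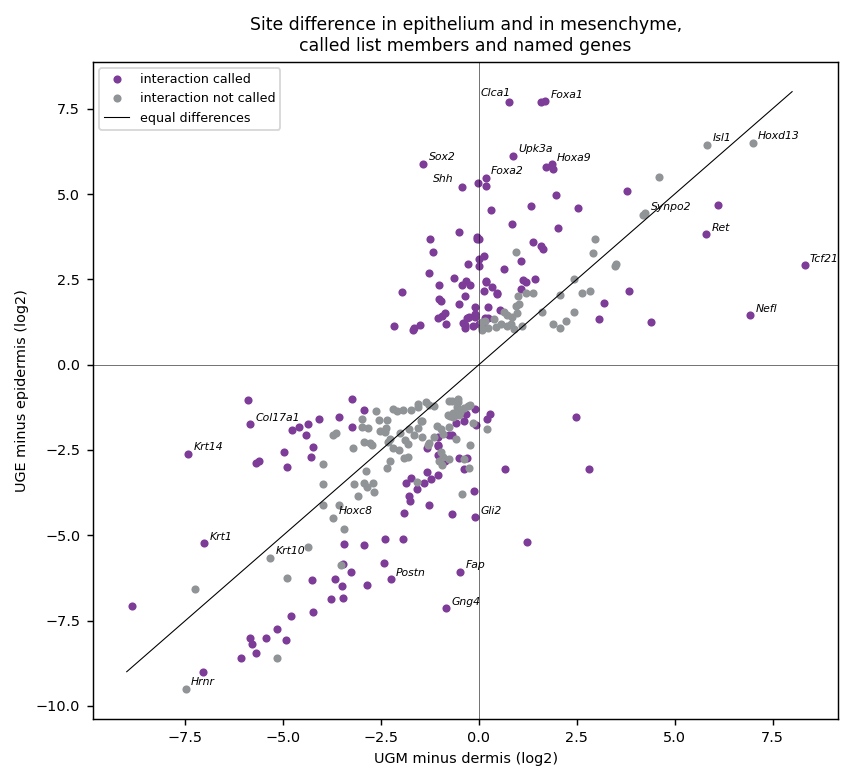
Difference UGE minus epidermis (vertical axis, log2) against UGM minus dermis (horizontal axis, log2) for the genes of the lists and the named genes that were called between the epithelia, 1 point a gene; purple points were also called for the interaction and the black line marks equal differences. Hoxd13 and Isl1 lie near the line, Sox2, Clca1, Foxa1 and Shh far above it, and Gng4 and Fap far below it.

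Markers of other cell types were set beside these results. In bulk RNA fewer cells of a type and less RNA per cell cannot be told apart. Of 24 measured mesenchymal markers 15 were lower in UGE and 2 higher, Fn1 (2.32 ± 0.14) and Tcf21. The sum of their intensities was 11620 to 37830 in UGE and 44740 to 75150 in epidermis, against 160100 to 170900 in UGM and 195100 to 253200 in dermis. No marker was at 0, but the lowest reading in the UGE and epidermis samples, 13.44, lay under the lower quartile of the arrays. Col1a2, a chain of the main collagen of connective tissue, read 1092, 6771, 6400, 163, 172 and 196 in UGE replicates 1 to 6, and 14420, 12290, 14750 and 5696 in epidermis (-3.79 ± 0.89, adjusted p = 0.00223). UGE replicates 2 and 3 exceeded epidermis replicate 4, so the groups overlapped. With UGE replicates 2 and 3 alone the difference of Col1a2 was -0.75 and not called, and without them -5.31. The median log2 intensity of the list was 10.05 in each of UGE replicates 2 and 3 and 9.57 to 10.98 in epidermis. It was 7.86 in UGE replicate 1 and 6.29 to 6.42 in UGE replicates 4 to 6. UGE replicate 1 remained in the fits without replicates 2 and 3. Postn, an extracellular protein at 52.0, 86.3 and 129.9 in UGE and 4144, 7370, 7644 and 8119 in epidermis (-6.29 ± 0.25), was lower by 6.28 with UGE replicates 2 and 3 alone as well.

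Counts of the epithelial lists moved little with these 2 samples. Without UGE replicates 2 and 3, 5455 probe sets were called, and 88.9% of the original calls were among them. The lists then had 18 cornified envelope genes, 17 barrier lipid enzymes, 10 stratified keratins and 13 stratification factors lower, and 11 sinus regulators and 7 posterior Hox genes higher. With UGE replicates 2 and 3 as the only UGE samples, the same counts were 19, 17, 9, 10, 14 and 7. Mesenchymal markers moved with the choice, 19 lower without the 2 samples and 8 lower with them alone.

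Markers of other cell types were also called in part. Melanocyte markers were lower in UGE for 6 of 9 measured (Dct read 31.0, 54.1 and 116 in UGE and 2915, 2736, 2190 and 1278 in epidermis, -5.26 ± 0.33), with sums of 1027 to 1413 in UGE and 3397 to 8130 in epidermis, and epidermis replicate 4 the lowest of its group in Dct, Pmel and Tyr. Skeletal muscle markers were lower for 6 of 15 (sums 504.8 to 876.4 in UGE and 1610 to 2380 in epidermis), with Actc1 at -3.50 ± 0.45, and 3 of them, Myf5, Myf6 and Tnnt3, stayed under the lower quartile of the arrays in all 10 samples. Of 8 Schwann and neural crest markers 3 were lower, led by Ednrb (-3.05 ± 0.18). Of 13 neuronal markers 5 were higher in UGE, Uchl1 (626, 667 and 1089 in UGE, against 39.1, 30.9, 28.5 and 41.1 in epidermis, 4.39 ± 0.21), Stmn2 (1.80 ± 0.16), Th (1.54 ± 0.26), Nefl and Syt1 (1.24 ± 0.13); their sum was 1589 to 2318 in UGE and 617.7 to 882.2 in epidermis, against 33080 to 43130 in UGM. Synpo2 was the only one of 10 smooth muscle markers that was called (4.44 ± 0.21). The 4 of 10 Merkel cell markers that were higher, Sox2, Isl1, Krt8 and Krt18, belong to the sinus genes above, and Atoh1, which defines Merkel cells, read 48.3, 59.2 and 75.7 in UGE and 116, 94.4, 77.2 and 75.4 in epidermis without a call (-0.57 ± 0.17). Endothelial and macrophage markers each had 1 lower member, Lyve1 (-2.89 ± 0.31) and Mrc1 (-1.84 ± 0.23), of 14 and 12 measured, and of 7 erythroid markers none was called.

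Markers of the mesonephric and Mullerian ducts, which enter the sinus, were higher in UGE for 4 of 9 measured genes, with sums of 4652 to 8331 in UGE and 2470 to 2627 in epidermis. Cdh16, a cadherin of duct and kidney epithelium, read 1244, 3489, 3805, 1177, 1050 and 1618 in UGE replicates 1 to 6 and 89.1, 64.5, 84.0 and 65.3 in epidermis (4.58 ± 0.34, adjusted p = 3.10e-09). Emx2 read 188, 717, 849, 165, 144 and 221 in UGE and 47.2, 43.2, 53.0 and 39.6 in epidermis (2.67 ± 0.45), Ret differed by 3.82 ± 0.17 and Lhx1 by 1.26 ± 0.33. In Cdh16 and Emx2 UGE replicates 2 and 3 were the highest, and 8 of the 9 markers were higher with these 2 samples alone, against 3 without them. Without them the difference was 1.96 for Emx2 and 0.66 for Lhx1, which lost its call. How far cells of other types account for the differences named above was not tested.

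**Figure D5:**
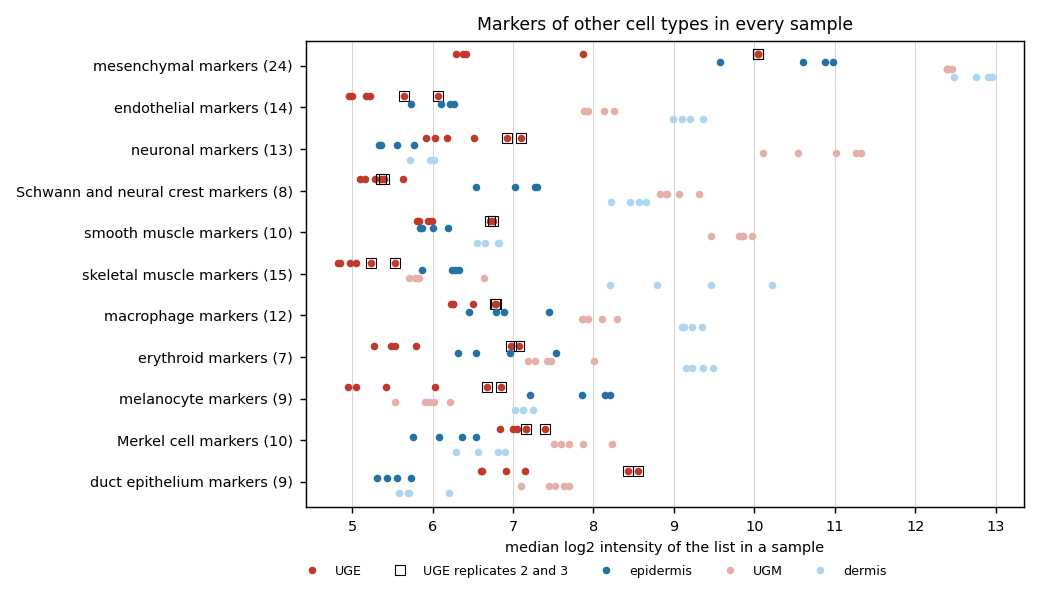
Median log2 intensity of each marker list in each sample (horizontal axis), 1 row a list with its number of measured genes and 1 point a sample in the colour of its group; open squares mark UGE replicates 2 and 3. Mesenchymal markers lie at 6.29 to 10.05 in UGE, with replicates 2 and 3 highest, and at 9.57 to 10.98 in epidermis.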

How the data were processed

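Each sample was RNA of pooled embryonic tissue on an Affymetrix mouse array with 1 colour. The authors deposited 1 table of probe set intensity values for the 19 arrays, already summarised over probes and on a linear scale. Per the submitters' processing notes GCOS 1.4 was used, and the study's methods name scaling in that program and, from the raw files in ArrayAssist, detection calls by MAS5 and levels by PLIER. Which of these yielded the deposited intensities was not given in the sources used here. Gene names came from GEO's platform annotation: 34945 probe sets had 1 symbol, 932 several and 9160 none, and 64 control probe sets were left out.

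The deposited intensities were used on the log2 scale with no further normalization. Probe sets that nowhere exceeded 20 were dropped, which left 41549 of 45101, and these entered limma (version 3.58.1, R 4.3.3) in 1 fit of the 4 groups, with contrasts for UGE against epidermis, UGM against dermis and their difference, and Benjamini-Hochberg adjustment over all of them. Calls needed an adjusted p under 0.01 and a change over 2-fold. For a gene with several tested probe sets, the one brightest on average over the 19 samples was read. The number of arrays limits the precision, and since nothing says that pools were independent, p-values measure only the spread between these samples. The fit was tested on simulated data with known changes.

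Genes were named by rule: the 12 largest non-overlapping changes in each direction, the largest interactions, and the largest called members of each list (179 genes, 176 of them called). The interactions were ranked only among genes also called between UGE and epidermis. Other members were named for their role after their values were seen. The members and lists were chosen with earlier results of these data known. Same-numbered samples did not deviate together (correlations of -0.56, -0.28, -0.33 and 0.26 for numbers 1 to 4), and numbers were not taken as pairs. These correlations cannot show whether same-numbered pools shared embryos, since differences in cell content between samples enter them too. Alternatives covered the test, samples in the fit, normalization, an added constant, filters, thresholds, the choice of probe set, a replicate block and samples left out. Promoters were the 250 bases before each RefSeq gene start on GRCm38.p6.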

Additional observations from a re-analysis of the deposited data

Results flagged for a closer look

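Single samples were screened for values apart from the others of their group. Dixon's test at 95% was run for 358 groups of values of the named genes and singled out 20. That is close to the share of about 1 in 20 that chance alone would single out, and the flags are only listed here. Epidermis replicate 1 held 8 of them, given here as its log2 intensity: 6.1 for Cldn6, 11.69 for Elovl4, 8.09 for Hes6, 5.8 for Hoxd13, 13.49 for Hspa1b, 9.12 for Kcnj15, 8.29 for Kif11 and 12.02 for Postn. It was above the other 3 epidermis samples for Cldn6, Hes6 and Hoxd13 and below them for the rest. A flag can rest on a small gap where the other values nearly coincide, as for Cldn6, where they read 5.99 to 6.0. Epidermis replicate 3 was low for Krt1 at 13.55 and for Wnt3 at 5.05, and epidermis replicate 4 was high for Jun at 10.59 and low for Mgp at 4.58. Among the UGE samples, replicate 1 was high for Clca1 at 12.53 and Uchl1 at 10.09 and low for Serpinb3a at 3.9. Replicate 5 was low for Elovl4 at 5.46 and Ndrg1 at 10.65, and replicate 6 was high for Cldn1 at 7.43, Hspa1b at 12.46 and Sgms2 at 9.95.

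Interactions were ranked among genes called in limma both between UGE and epidermis and for the interaction. Genes not called between the epithelia, such as Snap25 (interaction -5.94) and Tubb3 (-5.84), were left out. For 12 of the ranked genes the difference between UGE and epidermis departed most from that between UGM and dermis. Positive log2 interactions were those of Sox2 at 7.31, Clca1 at 6.92, Tspan8 at 6.11, Foxa1 at 6.03, Shh at 5.64 and Lypd2 at 5.35. Negative ones were those of Slc2a3 at -6.41, Gng4 at -6.3, Nalcn at -5.87, Fap at -5.58, Nefl at -5.48 and Tcf21 at -5.41. Slc2a3, Gng4, Nalcn and Fap were among the genes lower in UGE, and Nefl and Tcf21 among those higher in it.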

How the results depend on the processing

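Between UGE and epidermis 4984 probe sets were called, and leaving out 1 sample at a time gave 4698 to 5088. With 50 added to each intensity there were 3296 calls, 1883 of them higher. With a test against 2-fold (limma treat) there were 1685, 972 higher and 713 lower, and 1083 for the interaction, 590 positive and 493 negative. Reading 1 probe set per gene gave 2510 calls of fewer features, 1441 higher and 1069 lower. A filter on a median over 50 left 1014 negative interactions. With UGE replicates 2 and 3 as the only UGE samples 3158 were lower, and 2836 interactions were negative. With the replicate number as a block over the 10 samples, 2905 were called, 1740 higher and 1165 lower, although nothing in the labels says that the numbers pair the samples. The cause of these shifts was not tested. Of 191 named results, 129 kept their direction and call under every alternative in which they were read. A result was not read where a filter dropped its probe set. Interactions were not read in fits of the 10 samples alone. With only the 10 UGE and epidermis samples in the limma fit, 11 lost their call: Acvr2a, Aqp1, Axin2, Col1a2, Col3a1, Creb3l1, Dlk1, Fgf9, Lhx1, Nefl and Tcf21. The methods' t-test lost 21, these and Col6a3, Crabp1, Degs2, Emx2, Gas1, Gli1, Gli2, Itgb6, Kif11 and Tyms, and 36 were lost under the block. Limma treat lost the most, 51 named results, with Fos, Jun, Krt19, Col17a1 and Scnn1a among them. With 50 added to each intensity 21 were lost. Another probe set gave a larger fall for Fst (-4.74), Lef1 (-3.19), Lipm (-7.38), Pou3f1 (-4.42) and Sbsn (-7.25). The choice of probe set also weakened results. With the mean of a gene's probe sets 13 lost their call: Axin2, Cd151, Dsg2, Fgf13, Hoxc5, Itgb6, Jun, Smo, Sox10, Sox9, Tcf21, Ttn and Tyms. With the probe set brightest over the 10 samples 3 did: Hoxc5, Kif11 and Lyve1. With single samples left out, 11 called genes lost their call in limma: Creb3l1 (-0.995), Dsg2 (0.95) and Fgfr2 (0.94) without epidermis replicate 1, Itgb6 without that sample (0.92) or UGE replicate 6 (0.93), Acvr2a without epidermis replicate 2, 3 or 4 (-1.73 to -1.58), Axin2 without UGE replicate 4, 5 or 6 or epidermis replicate 3 or 4 (-0.996 to -0.912), Dlk1 without UGE replicate 4 or 5 or epidermis replicate 1 or 2 (-2.18 to -1.67), Lhx1 without UGE replicate 3 or epidermis replicate 2, 3 or 4 (0.98 to 1.28), Tcf21 without UGE replicate 1, 2 or 3 or any epidermis sample (2.44 to 2.95), and Sox9 and Spint1 as given above. Cdh3 and Itga6, neither called, changed sign: Cdh3 ranged from -0.059 to 0.05 with single samples left out, and was 0.118 with UGE replicates 2 and 3 only and 0.067 as the mean of its probe sets, and Itga6 ranged from -0.332 to 0.019. Values under the lower quartile of the arrays bound the folds of the dimmest genes, and site cannot be told apart from the enzyme used to separate the layers.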
